A study of Mus musculus with 8 samples.

Results

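Cd4 and 7 marker genes of lymphocytes (Cd3e, Cd3d, Cd3g, Cd8a, Cd79a, Nkg7 and Ncr1) were followed in mouse medulloblastomas with and without Bcl2l1, 8 genes of the 22180 that a probe set of their own measured. Each was taken as the probe set that the platform annotation gives this symbol alone. All 8 had 1 such probe set, and none was left out for low signal. Cd4 entered because its increase in the comparison of the genotypes was among the largest of all genes, and the other markers were added with their values in that comparison known. The genotype differences of the 8 genes are therefore given as a description, without a test. The question put to them was whether Cd4 moves with T cell genes or with myeloid genes.

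The tumours were taken at postnatal day 15 from 8 untreated mice, a separate animal for each array, in 2 groups of 4. Every mouse of both groups had the transgenes Math1-Cre and SmoM2. The Math1 (Atoh1) promoter drives Cre in granule neuron precursors of the cerebellum, and Cre there turns on SmoM2, an active form of Smoothened that keeps Sonic hedgehog signalling on. The Bcl2l1-deleted group had the genotype Math1-Cre/SmoM2/Bcl2l1 f/f, in which the same Cre removes Bcl2l1, the gene encoding the survival protein BCL-xL. The controls were Math1-Cre/SmoM2. The labels' separate status field calls Bcl2l1 deleted in every sample, in controls too, and was not used. RNA came from whole tumours, so that fewer cells of a type and less RNA per cell cannot be told apart in any value below.

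CD4 is a surface protein that binds MHC class II molecules. On helper T cells it acts as a co-receptor beside the T cell receptor and brings the kinase LCK to it. CD8 does the same for class I molecules on cytotoxic T cells. A T cell that shows CD4 also carries the CD3 chains, which hold the T cell receptor at the surface and pass on its signal. CD4 is not confined to T cells: some macrophages, dendritic cells and lymphoid tissue inducer cells of rodents carry it without CD3.

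Bcl2l1 itself was 5.46, 5.46, 5.69 and 5.32 on the log2 scale on Bcl2l1-deleted replicates 1 to 4 and 6.88, 6.57, 6.93 and 6.98 on control replicates 1 to 4. It fell by 1.36 (SE 0.16, limma adjusted p = 0.00806), and the groups did not overlap, so each array matched its label. With Bcl2l1-deleted replicate 1 left out it no longer passed (adjusted p = 0.0603), nor with replicate 2 left out (adjusted p = 0.0556). The position of its probe set relative to the floxed exons was not analysed here. All 15 measured genes of tumour granule neuron precursors, among them Atoh1, Gli1 and Barhl1, were above background on all 8 arrays. Background was read from the 1394 odorant and vomeronasal receptor genes (Olfr and Vmn), and a gene was counted as above background on an array when its value passed the 95th percentile of these genes there. That level was 4.61 to 4.78 on the Bcl2l1-deleted arrays, 4.89 to 5.10 on control replicates 1, 3 and 4, and 5.88 on control replicate 2. Control replicate 2 stood apart from the rest: the middle 50% of its genes spanned 2.40 log2 units, against 3.29 to 3.66 on the other 7 arrays. The receptor genes had a median of 3.60 on that array and of 2.79 to 3.09 on the others. For many results that rest on it a value without it is given as well, but the counts of ordered pairs below include it. Over all 22180 genes, 548 passed an adjusted p of 0.05, which is 2.47% (1.75% higher and 0.717% lower in the Bcl2l1-deleted tumours). An unadjusted p under 0.05 was reached by 16.2% of all genes towards higher and by 8.84% towards lower values, the background for such counts in the gene lists. The groups did not overlap for 18.9% of genes, 13.6% with the Bcl2l1-deleted tumours higher and 5.3% lower. The median gene differed by 0.04, or by -0.07 once each array was centred on its median, and the differences below are on the deposited scale.

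Cd4 was 7.55, 7.32, 6.39 and 6.93 on Bcl2l1-deleted replicates 1 to 4. In the controls it was 5.40, 4.53, 5.89 and 4.46 on replicates 1 to 4. Every Bcl2l1-deleted tumour stood above every control, the nearest being Bcl2l1-deleted replicate 3 and control replicate 3. The means were 7.05 ± 0.51 (SD, n = 4) and 5.07 ± 0.69 (SD, n = 4), a difference of 1.98 (SE 0.34), or 3.94-fold, and 6 of 22180 genes had a larger increase. Cd4 was above background on all 4 Bcl2l1-deleted arrays and on 2 of 4 control arrays, replicates 1 and 3. On control replicates 2 and 4 it was below that level, and RMA compresses differences there. The difference was 1.80 without control replicate 2 and between 1.78 and 2.25 when each array was left out in turn.

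The CD3 chains did not follow Cd4. Cd3e, whose product carries a signalling motif of the T cell receptor complex, was 3.75, 3.86, 3.98 and 3.92 on the Bcl2l1-deleted arrays and 4.17, 5.22, 4.15 and 3.82 on the controls. The groups overlapped, and the highest value was that of control replicate 2. The difference was -0.46 (SE 0.26), -0.17 without that array, and 0.03 with the median of the receptor genes as a covariate. Cd3d, the delta chain, was 3.79, 4.07, 3.45 and 4.02 on the Bcl2l1-deleted arrays and 3.83, 5.38, 4.01 and 4.34 on the controls. It differed by -0.56 (SE 0.31), by -0.23 without control replicate 2, and by 0.12 with the receptor covariate, so for Cd3e and Cd3d the sign was not stable. Cd3g, the gamma chain, was 3.31, 3.96, 3.49 and 3.66 on the Bcl2l1-deleted arrays and 3.66, 4.70, 4.43 and 4.18 on the controls. It differed by -0.63 (SE 0.23), and by -0.48 without control replicate 2. All 3 CD3 genes were below the background level on all 8 arrays, so that no fold is given for them.

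Cd8a, the alpha chain of CD8, was 4.43, 4.75, 4.19 and 4.50 on the Bcl2l1-deleted arrays and 4.57, 4.80, 4.38 and 4.09 on the controls. The means of 4.47 ± 0.23 (SD, n = 4) and 4.46 ± 0.30 (SD, n = 4) differed by 0.01 (SE 0.19), and 1 of the 8 arrays, Bcl2l1-deleted replicate 2, was above background. Cd8b1, the partner chain of CD8, was above background on no array.

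Outside the T cell lineage, Cd79a, the signalling chain of the B cell receptor, was 4.21, 4.74, 4.28 and 4.78 on the Bcl2l1-deleted arrays and 4.45, 4.09, 4.57 and 4.48 on the controls. It differed by 0.11 (SE 0.19) and was above background on Bcl2l1-deleted replicates 2 and 4 alone. Nkg7, a granule protein of natural killer and cytotoxic T cells, was 5.04, 5.11, 5.38 and 5.60 on the Bcl2l1-deleted arrays and 5.23, 5.62, 4.93 and 5.64 on the controls. It was above background on 6 arrays, the same number as Cd4, but its groups overlapped over nearly their whole range and differed by -0.07 (SE 0.21). Ncr1, the activating receptor NKp46 of natural killer cells, was 3.80, 4.05, 3.85 and 3.53 on the Bcl2l1-deleted arrays and 4.14, 4.85, 3.69 and 4.52 on the controls. It was above background on no array and differed by -0.49 (SE 0.24), or by -0.31 without control replicate 2.

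**Figure D1:**
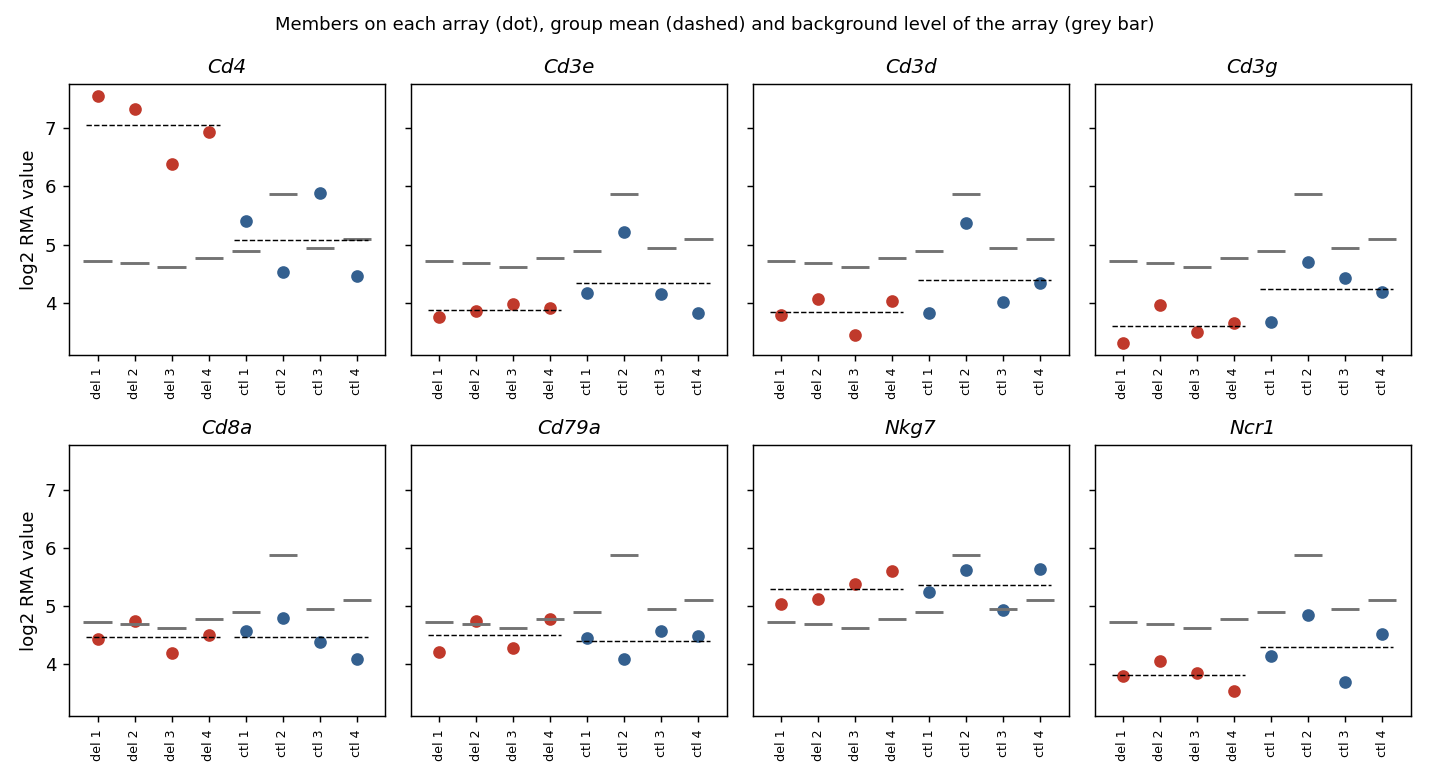
Log2 RMA value (vertical axis) of each of the 8 genes on each array (horizontal axis; del, Bcl2l1-deleted, red; ctl, control, blue; numbers are replicates), with the group mean as a dashed line and the background level of the array as a grey bar. Cd4 lies above the bar on 6 arrays and is higher on all 4 Bcl2l1-deleted arrays, between 6.39 and 7.55, than on any control, while Cd3e, Cd3d, Cd3g and Ncr1 lie below the bar on all 8.

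Of the 8 genes, 1 (Cd4) had groups that did not overlap, where 18.9% of all genes had. With the 90th percentile of the receptor genes as the background level, Cd3e, Cd3d, Cd3g and Ncr1 were still above it on no array, and Cd4 on 6. The other 3 markers depended on the level. At the 90th percentile Cd8a and Cd79a were above it on 4 arrays each, 3 Bcl2l1-deleted and 1 control, and Nkg7 on all 8. With the 99th percentile Cd4 was above it on 5 arrays, all 4 Bcl2l1-deleted ones and control replicate 3. Cd8a and Cd79a were then above it on 0 arrays and Nkg7 on 2.

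Beyond these members, T cell genes as a whole stood mostly at background. Of 12 measured genes of T cell receptor signalling, 1 rose and none fell. Of 22 measured genes of T cell surface and lineage, none passed (limma, unadjusted p under 0.05 for 1 higher and 0 lower). The one that rose was Lcp2, the adaptor SLP-76, which myeloid cells and platelets also use: it was 7.96, 7.64, 7.84 and 7.60 on the Bcl2l1-deleted arrays and 6.84, 7.01, 7.37 and 6.85 on the controls (difference 0.74, SE 0.17, adjusted p = 0.0494). That call was lost without any one of the 4 Bcl2l1-deleted arrays, without control replicate 1 or 4, with the replicate number as a block, with quantile normalization, with median centring and when the median of the receptor genes was a covariate (limma adjusted p between 0.0555 and 0.191). Over the T cell lists together 20 of 34 genes were above background on no array, against 31.7% of all genes, and 3 were above it on all arrays: Lcp2, the kinase gene Prkcq and Bcl11b, a transcription factor that neurons also express. The kinase gene Zap70, the adhesion gene Cd2 and the receptor genes Il7r and Cd27 were below it on all 8 arrays. Lef1 of the surface and lineage list, above background on 7 arrays, did not pass (0.58, SE 0.19, adjusted p = 0.109). It was higher on all 4 Bcl2l1-deleted arrays than on any control. Of the 34 genes, 2 had groups that did not overlap with the Bcl2l1-deleted tumours higher, and 1 lower, against 13.6% and 5.3% of all genes. The median difference of the 34 genes was -0.08, where that of all genes was 0.04. Its sign turned with the setting: it was 0.015 without control replicate 2, 0.09 with quantile normalization and 0.09 with the receptor covariate. The mean level of the 34 genes was 4.40 to 4.52 on the Bcl2l1-deleted arrays and 4.34 to 4.75 on the controls, and the ranges of the groups overlapped. None of the helper T cell regulators Foxp3, Gata3 and Tbx21 passed. Foxp3, the regulator of regulatory T cells, stood at -0.34 (SE 0.27, adjusted p = 0.428), and Tbx21, that of type 1 helper cells, at 0.04 (SE 0.16, adjusted p = 0.889). Gata3, that of type 2 helper cells, stood at -0.33 (SE 0.15, adjusted p = 0.204), with all 4 Bcl2l1-deleted arrays below the controls. They were above background on 4, 3 and 3 arrays in the order Foxp3, Tbx21 and Gata3. Lck, the kinase that CD4 carries, was not analysed here.

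B cell genes held 2 that rose and none that fell among 16 measured (limma, unadjusted p under 0.05 for 4 higher and 0 lower). Ighm, the constant region of the IgM heavy chain, was 8.21, 7.82, 8.64 and 7.48 on the Bcl2l1-deleted arrays and 6.52, 6.48, 6.96 and 6.03 on the controls, 2.91-fold higher (difference 1.54, SE 0.27, adjusted p = 0.0239). These are values of the brightest of 7 probe sets that name Ighm, and the 7 disagreed: the second brightest differed by 1.43 and the other 5 by -1.60 to -0.28, and their mean did not pass (adjusted p = 0.848). Its value is therefore uncertain, and the call was also lost with the receptor covariate (adjusted p = 0.0599) and without Bcl2l1-deleted replicate 1 or 2 or control replicate 4. Cd22, an inhibitory sialic acid receptor that microglia can also carry, was 5.97, 5.79, 6.07 and 5.82 against 5.02, 5.40, 5.32 and 5.07 (difference 0.71, SE 0.16, adjusted p = 0.0423), a call lost with median centring, with the replicate block, and without any one Bcl2l1-deleted array or control replicate 3 or 4. On these probe sets both genes were higher on all 4 Bcl2l1-deleted arrays than on any control. Ms4a1, which encodes the B cell antigen CD20, was above background on no array and stood at -0.23 (SE 0.20, adjusted p = 0.493), and Jchain, the joining chain of secreted IgM, was above it on none and stood at 0.21 (SE 0.21, adjusted p = 0.524). Bank1 (0.84, SE 0.20, adjusted p = 0.0549) and Cd79b (0.79, SE 0.30, adjusted p = 0.139) did not pass. Both were higher on all 4 Bcl2l1-deleted arrays than on any control, and above background on 6 arrays each. Of the 16 genes, 4 had groups that did not overlap with the Bcl2l1-deleted tumours higher, and 0 lower, against 13.6% and 5.3% of all genes. The median difference over the list was -0.18, and 0.006 without control replicate 2.

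None of the 16 measured genes of natural killer and cytotoxic cells passed (limma, unadjusted p under 0.05 for 0 higher and 3 lower), and 12 were above background on no array, among them the granzyme genes Gzma and Gzmb and the perforin gene Prf1. Their median difference was -0.25, and -0.06 without control replicate 2. None of the 8 genes of innate lymphoid and lymphoid tissue inducer cells passed either (limma, unadjusted p under 0.05 for 0 higher and 2 lower), with 7 above background on no array. Over all 74 lymphoid genes, 3 (Lcp2, Cd22 and Ighm) were higher and 0 lower. The count higher was 0 without Bcl2l1-deleted replicate 1 or 2 or control replicate 4, and 1 without Bcl2l1-deleted replicate 3 or 4 (limma, unadjusted p under 0.05 for 5 to 7 higher and 4 to 8 lower of the 74 in these 5 settings, and for 6 higher and 7 lower with all arrays). With the replicate number as a block, 1 was higher. The count lower was 1 in some settings: Eomes, a T-box factor of natural killer and cytotoxic T cells, passed towards lower values with dim genes left out, with median centring, with the receptor covariate and without control replicate 2 (limma adjusted p between 0.0315 and 0.0422), and Il2rb, an interleukin receptor chain above background on no array, without control replicate 1 (adjusted p = 0.0484). Which cells of the tumours gave the Eomes signal was not tested. The median difference of the 74 genes was -0.15, and -0.02 without control replicate 2.

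**Figure D2:**
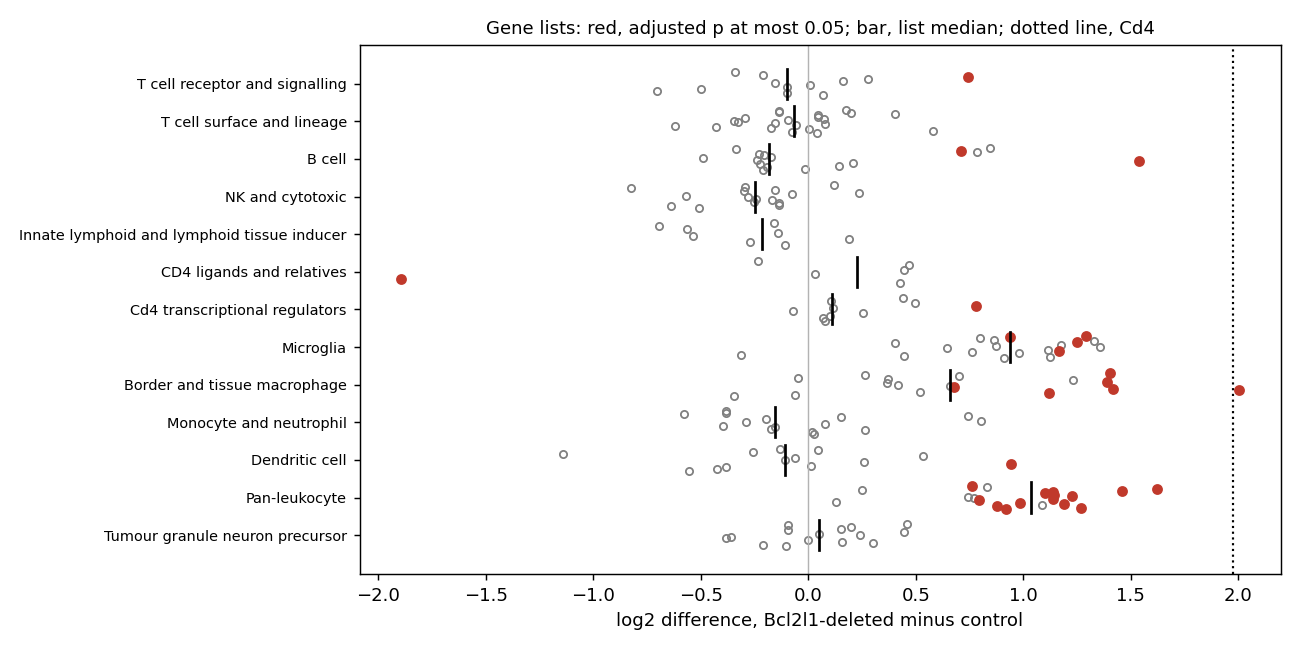
Fitted log2 difference, Bcl2l1-deleted minus control (horizontal axis), of each measured gene of the lists (rows), with genes past an adjusted p of 0.05 in red, other genes as open circles, the list median as a black bar and Cd4 at 1.98 as a dotted line. The lymphoid lists lie around 0, with Lcp2, Cd22 and Ighm in red, while the microglia, border macrophage and pan-leukocyte lists have medians of 0.94, 0.66 and 1.04.

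Among 6 measured ligands and relatives of CD4, none rose and 1 fell. Il16, a cytokine that binds CD4 and that also has a neuronal form found in cerebellar granule neurons, was 4.96, 5.49, 6.32 and 4.83 on the Bcl2l1-deleted arrays and 7.40, 6.84, 7.26 and 7.67 on the controls. It fell by 1.89 (SE 0.31, 3.71-fold lower, adjusted p = 0.0209), without overlap, a call lost without Bcl2l1-deleted replicate 1, 2 or 4 or control replicate 4. The MHC class II genes H2-Ab1 (0.45, SE 0.19, adjusted p = 0.173), H2-Aa (0.47, SE 0.23, adjusted p = 0.236) and H2-Eb1 (0.03, SE 0.20, adjusted p = 0.937) did not pass, nor did Ciita, their transcriptional activator (-0.23, SE 0.15, adjusted p = 0.349). Lag3, a class II receptor related to CD4 and its neighbour in the RefSeq gene order, was 5.98, 5.80, 6.28 and 5.97 against 5.92, 5.40, 5.65 and 5.36 (difference 0.43, SE 0.18, adjusted p = 0.174). Of the other neighbours, Gnb3, P3h3, Gpr162, Ptms and Mlf2, none passed (limma, adjusted p between 0.217 and 0.950), and Mlf2 alone had groups that did not overlap, at 0.20.

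Of 10 measured genes that regulate Cd4 transcription in T cells, 1 rose and none fell. Runx1, a subunit of the RUNX complex that binds the Cd4 silencer and that myeloid cells also express, was 5.99, 5.91, 6.28 and 5.88 on the Bcl2l1-deleted arrays and 5.34, 5.17, 5.41 and 5.02 on the controls (difference 0.78, SE 0.16, adjusted p = 0.0355). This call was lost with median centring, the receptor covariate or the replicate block, and without any one Bcl2l1-deleted array or control replicate 3 or 4. Zbtb7b, the ThPOK factor that keeps Cd4 on in helper T cells, stood at 0.08 (SE 0.14, adjusted p = 0.742). Runx3, which keeps it off in CD8 T cells, was above background on no array and stood at 0.11 (SE 0.21, adjusted p = 0.744).

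Of 20 pan-leukocyte genes 14 rose and none fell, with a median difference of 1.04. Ptprc, which encodes CD45, a phosphatase on the surface of leukocytes, was 5.93, 5.80, 5.81 and 5.77 on the Bcl2l1-deleted arrays and 4.72, 4.23, 4.63 and 4.96 on the controls (difference 1.19, SE 0.18, adjusted p = 0.0183). It was above background on all 4 Bcl2l1-deleted arrays and on no control array, where RMA compresses differences. The phosphatase gene Ptpn6 (0.99, SE 0.15, adjusted p = 0.0183), the signalling adaptor gene Hcls1 (1.14, SE 0.19, adjusted p = 0.0209) and the exchange factor gene Vav1 (1.27, SE 0.21, adjusted p = 0.0209) rose as well. Over all genes 1.75% rose. Of 17 border and tissue macrophage genes 6 rose and none fell, with a median of 0.66, led by Ms4a7 (adjusted p = 0.0151), Adgre1, which encodes F4/80 (adjusted p = 0.0183), Stab1 (adjusted p = 0.0188) and Mrc1 (adjusted p = 0.0209). The other 11 did not pass, among them Lyve1 (0.66), Folr2 (0.42), Cd163 (-0.05) and Vsig4 (-0.35). Vsig4 was lower on all 4 Bcl2l1-deleted arrays than on any control, but above background on no array. Of the 17 differences, 14 were above 0 and 3 below. Of 19 microglia genes 4 rose and none fell, with a median of 0.94: Aif1, Ctss, C1qa and P2ry13 (adjusted p = 0.0209, 0.0209, 0.0359 and 0.0445). Without control replicate 2 the medians were 0.973 for pan-leukocyte, 0.575 for border and tissue macrophage and 0.864 for microglia genes. The mean level of the microglia genes was 7.56 to 7.81 on the Bcl2l1-deleted arrays and 6.33 to 7.27 on the controls, and that of the microglia and macrophage genes together 6.99 to 7.23 and 6.04 to 6.67. Their part in the Cd4 difference was not tested.

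These counts depended on single arrays. Followed here were 18 genes past the threshold, up to 4 with the smallest p in each list, Irf8 of the dendritic cell list included. Clec12a of the border macrophage list, named below for its likeness to Cd4, also passed (limma adjusted p = 0.0274) but is not among the 18. Leaving out Bcl2l1-deleted replicate 1 or 2 left 0 of the 18 past the threshold (highest limma adjusted p 0.168), replicate 3 left 12 and replicate 4 left 6. Leaving out control replicate 1 left 17, replicate 2 left 18, replicate 3 left 15 and replicate 4 left 1, Ptprc. The count was 15 with quantile normalization, 14 with the replicate block, and 13 with median centring or the receptor covariate. The pan-leukocyte count was 0 without Bcl2l1-deleted replicate 1 or 2, 6 and 2 without replicate 3 or 4, and 1 without control replicate 4. The 10 macrophage and microglia genes became 0 without Bcl2l1-deleted replicate 1 or 2 or control replicate 4, 3 without Bcl2l1-deleted replicate 4, and 18 without control replicate 1 (limma, unadjusted p under 0.05 for 23 to 28 of the 36, all higher).

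**Figure D3:**
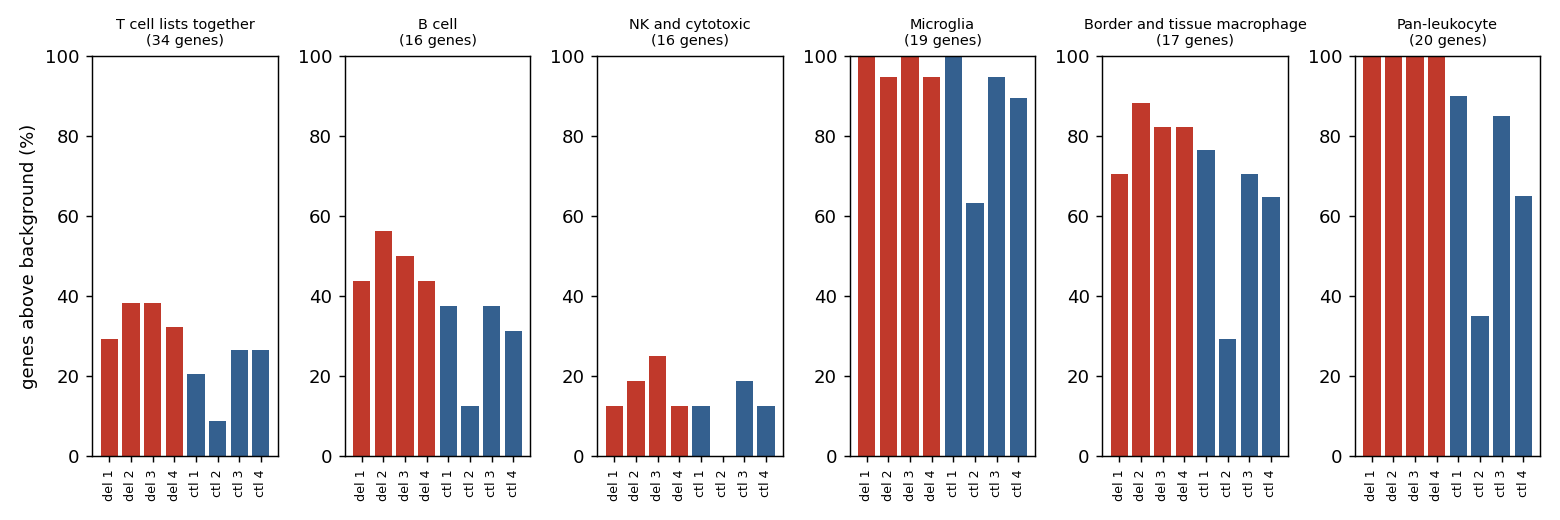
Share of the measured genes of a list above the background level (vertical axis, percent) on each array (horizontal axis; del, Bcl2l1-deleted, red; ctl, control, blue). Of the 34 T cell genes 10 to 13 pass on the Bcl2l1-deleted arrays and 3 to 9 on the controls, of the 16 natural killer genes 2 to 4 and 0 to 3, and of the 20 pan-leukocyte genes all 20 and 7 to 18, with control replicate 2 lowest in each list. Over all 22180 genes 13511 to 14164 and 9219 to 13221 pass, so the T cell and pan-leukocyte genes go the same way as all genes.

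Several of the genes with a profile closest to that of Cd4 over the 8 arrays are known from macrophages. Likeness was measured as the root mean square distance between profiles, each gene centred on its own mean, over 8 arrays, and it holds the genotype difference for which Cd4 was chosen. A gene without a large increase is far from Cd4 by construction, and the nearest genes are given as a description. The 10 nearest genes were Ms4a7, Cybb, Clec12a, Cd36, Dcn, Npl, Mrc1, Sgk3, Vxn and Cd33. Ms4a7, a membrane protein of border macrophages, lay at 0.26 log2 units, with 8.80, 8.56, 8.10 and 8.34 on the Bcl2l1-deleted arrays and 6.88, 5.69, 6.93 and 6.29 on the controls. Cybb, the large subunit of the phagocyte NADPH oxidase, lay at 0.34 with 8.32, 7.96, 7.06 and 7.92 against 6.08, 5.06, 6.37 and 6.06. Clec12a, an inhibitory lectin receptor of myeloid cells, lay at 0.37 with 6.73, 6.34, 5.58 and 6.11 against 4.99, 4.56, 5.19 and 4.46. The mannose receptor gene Mrc1 (0.43), the scavenger receptor gene Cd36 (0.37) and the sialic acid receptor gene Cd33 (0.44) are also known from myeloid cells. Of the rest, Dcn (0.37) encodes the matrix proteoglycan decorin, Npl (0.40) an enzyme that splits sialic acid, Sgk3 (0.44) a kinase and Vxn (0.44) vexin, a protein of neural development. Without control replicate 2, 6 of the 10 stayed among the nearest, and 5 to 8 did when other arrays were left out, with Ms4a7, Cybb and Clec12a among them each time.

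**Figure D4:**
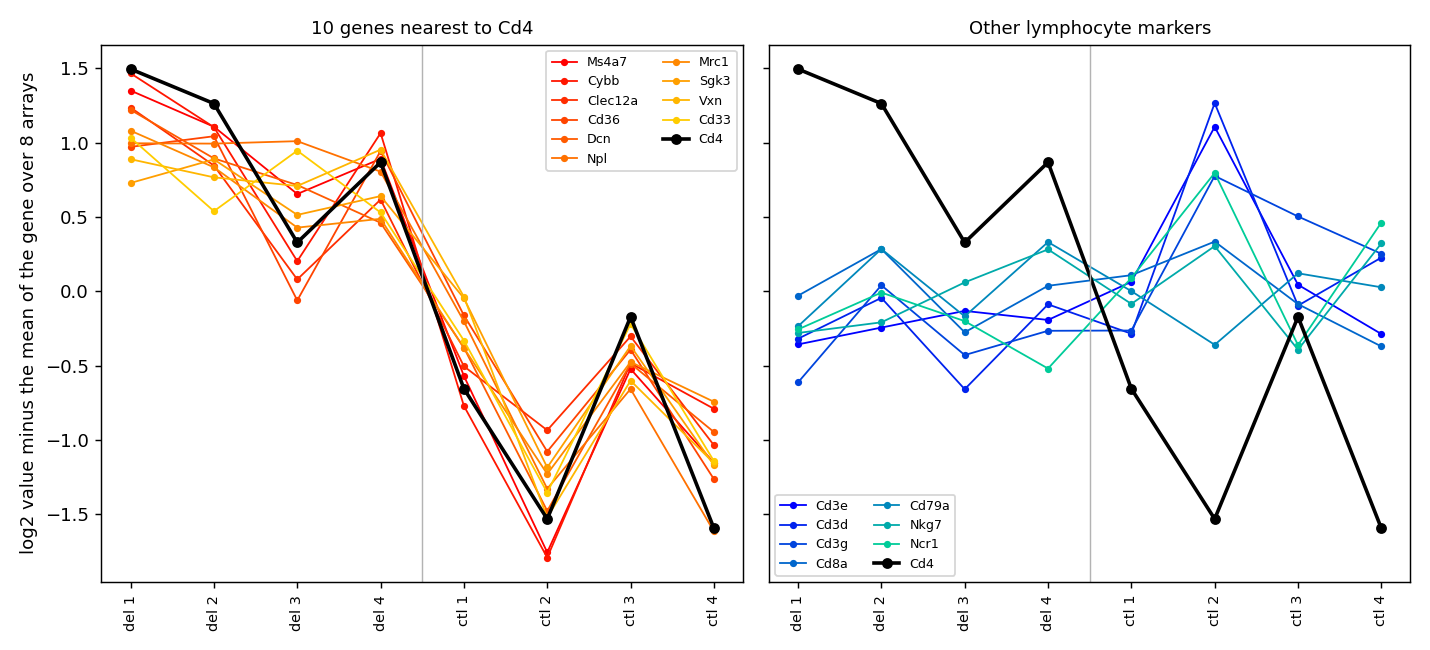
Log2 value minus the mean of the gene over 8 arrays (vertical axis) on each array (horizontal axis; del, Bcl2l1-deleted; ctl, control; lines join the points of a gene and imply no order of replicates), with Cd4 in black, its 10 nearest genes at left and the other 7 lymphocyte markers at right. The genes at left were chosen for their likeness to Cd4. Of the 12 pairs of arrays of the same group, Clec12a orders all 12 as Cd4 does, and Ms4a7 and Cybb 11 each. From control replicate 2 to 4 Cd4 falls from 4.53 to 4.46, while Ms4a7 and Cybb rise. Cd4 and Clec12a are below background on both of these arrays, where their order says little. The CD3 genes have their highest value on control replicate 2.

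A second measure left the genotype difference out. Each group of 4 arrays gives 6 pairs of arrays, and over the 12 pairs the number that a gene orders as Cd4 does was counted. The count uses the spread inside the groups alone, and the median of all genes was 6. Clec12a ordered all 12 pairs as Cd4 did, as 19 of 22179 genes did, Ms4a7 and Cybb 11, and Mrc1 and Cd36 10. These genes were picked by the first distance, which shares this spread. Cd4 and Clec12a were both below background on control replicates 2 and 4, so their shared order on that pair says little. Ms4a7 and Cybb differ from Cd4 on that pair alone, and it enters the count of every gene. Nkg7 ordered 1 of 12 pairs as Cd4 did, Cd3e 3, Ncr1 4, Cd3d, Cd3g and Cd79a 6 each, and Cd8a 7. Of these 7 markers, Cd3e, Cd3d, Cd3g and Ncr1 were above background on no array, where the order of the arrays says little. Of the 36 macrophage and microglia genes, 10 (27.8%) ordered at least 9 pairs as Cd4 did, of the 34 T cell genes 1 (2.94%, Prkcq), and of all genes 11.3%. Of the 10 genes that regulate Cd4 transcription in T cells, 3 did (Runx1, Cbfb and Tcf3), so a high share was not confined to macrophage lists. Of the 34 T cell genes, 20 were above background on no array, against 2 of the 36, which limits this contrast. The medians lay close together, at 7 for microglia, 7 for border macrophages, 5 for T cell genes and 6 for all genes. The median was also 7 for the Cd4 regulators and for the 15 tumour granule neuron precursor genes, of which 1 ordered at least 9 pairs. The array background ordered 6 of 12 pairs as Cd4 did and the signal range of the arrays 6.

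The promoters were read from RefSeq (GRCm38.p6) to set T cell genes at background beside macrophage genes that ordered the arrays with Cd4. Entries matched 7 of the 8 genes, all but Cd4, and 7 of its 10 nearest genes. Searched on both strands of the 250 bases before the start were GAGGAA, a core that the myeloid factor PU.1 binds, and TGTGGT, a core of RUNX factors. Of the 27025 promoters in the table, 23.1% held the first and 14.2% the second. The first was found for 4 of the 7 lymphocyte genes (Cd3e, Cd3d, Cd8a and Cd79a) and for 3 of the 7 near genes (Mrc1, Clec12a and Cd33), and the second for 2 (Nkg7 and Ncr1) and 3 (Cybb, Clec12a and Cd33). For Clec12a, Cd33, Cybb and Cd36 all of the last 120 bases before the start lay inside an annotated gene. For Cd3e 52 of these bases did, and for Cd3d 17. Mrc1 held 3 matches of GAGGAA and Ms4a7 none, though both ordered at least 10 pairs as Cd4 did. The last 120 bases before the start follow, 5′ to 3′, with matches in capitals, for Cd3g (chr9:44980432-44980551, minus strand), Cd3d (chr9:44981666-44981785, plus strand), Cd8a (chr6:71373307-71373426, plus strand), Mrc1 (chr2:14229294-14229413, plus strand) and Ms4a7 (chr19:11336147-11336266, minus strand).
Cd3g: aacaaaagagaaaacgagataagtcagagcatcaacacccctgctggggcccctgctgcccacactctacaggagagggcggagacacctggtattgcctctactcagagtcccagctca
Cd3d: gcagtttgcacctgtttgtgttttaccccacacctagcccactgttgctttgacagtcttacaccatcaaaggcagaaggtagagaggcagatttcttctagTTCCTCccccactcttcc
Cd8a: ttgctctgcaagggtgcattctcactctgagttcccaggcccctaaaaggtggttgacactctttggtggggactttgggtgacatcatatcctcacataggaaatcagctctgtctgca
Mrc1: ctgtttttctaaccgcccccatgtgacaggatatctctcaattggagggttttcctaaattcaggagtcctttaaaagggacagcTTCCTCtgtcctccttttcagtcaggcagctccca
Ms4a7: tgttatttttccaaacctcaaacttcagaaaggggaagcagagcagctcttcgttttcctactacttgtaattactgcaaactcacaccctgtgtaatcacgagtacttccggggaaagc
Cd3g and Cd3d lie beside each other and are read in opposite directions. In these stretches Cd3d and Mrc1 hold 1 match each, TTCCTC, the first core on the other strand.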

How the data were processed

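Total RNA of 8 tumours was hybridised to 1 Affymetrix whole-transcript array each. The deposited values are log2 RMA expression values from the Partek software, per the labels; its version and options, and any genome build, were not given in the sources used here. Of 41345 probe sets, 23521 have 1 gene symbol, 1814 several and 16010 none, and the highest-mean probe set was kept for each of 22180 genes. RefSeq (GRCm38.p6) matched 23328 probe sets by Entrez identifier and changed 0 symbols. Groups come from the sample titles.

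The model (Bcl2l1-deleted minus control) was limma 3.58.1 under R 4.3.3 on all genes, with no intensity filter, two-sided, with Benjamini-Hochberg adjustment; each adjusted p is from this fit. Tested on simulated data of this layout and 22180 genes, the fit called 93.0% of 100 genes shifted by 2 log2 units, 44.0% of 100 shifted by 1, and 5 unshifted genes. The simulated noise was independent between genes, with the same SD on every array. It held no array like control replicate 2, so these rates may not carry over to the real arrays. The members and lists were chosen with earlier results of these data known. Named genes were the members, the 4 smallest p past 0.05 in each list, the 10 genes nearest to Cd4 (predicted genes, small RNAs and receptors left out), list genes that order all 12 pairs as Cd4 does, 3 neighbours on each side and Bcl2l1; other genes named as examples were chosen after their values were seen. Precision is limited by the 4 animals in each group. Alternatives were a filter on dim genes, other scalings, a receptor covariate, another variance prior, a replicate block, other probe set choices and leaving out each array.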

Additional observations from a re-analysis of the deposited data

Results flagged for a closer look

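Among 32 groups of 4 arrays checked for an array far from the other 3, 2 were found, where chance gives about 1 in 20. The mean level of the natural killer and cytotoxic genes was 4.55 on control replicate 2, against 3.89 to 3.95 on the other controls. The mean level of the border and tissue macrophage genes lay at 6.35 on Bcl2l1-deleted replicate 4, and the other 3 arrays of that group lay between 6.58 and 6.62.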

How the results depend on the processing

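The difference of Cd4 was between 1.63 and 2.25 in every alternative run, and its shift from 1.98 was smaller than the spread between replicates in each. It was 1.63 with the receptor median as a covariate, under which Cd3e turned from -0.46 to 0.03 and Cd3d from -0.56 to 0.12, and 1.87 with arrays centred on their medians. All 8 genes have 1 probe set, so the choice of probe set changed none of them. The number of genes called over all genes was 548, and it was 1013 with dim genes left out, 227 with the replicate number as a block, and 1 to 1457 when each array was left out in turn. Of the calls, 71.0% were higher on the deposited scale, 48.8% after quantile normalization, 46.6% after median centring and 37.6% with the receptor covariate. Same-numbered arrays did not deviate together (correlations between -0.04 and 0.01), so the numbers were not taken as pairs. Lymphoid genes higher numbered 3, but 1 with median centring, 1 with the receptor covariate, 1 with the replicate block and 0 to 4 with arrays left out. Macrophage and microglia genes higher numbered 10, but 16 with dim genes left out, 6 with the receptor covariate and 0 to 18 with arrays left out. Pan-leukocyte genes higher numbered 14, but 9 after quantile normalization, 7 with the receptor covariate and 0 to 16 with arrays left out. The cause was not tested. Of the 10 genes nearest to Cd4, 4 stayed after quantile normalization and 10 after median centring; quantile normalization and left-out arrays were added for this list after seeing the data.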

Other observations

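Other myeloid lists, of cells that can also carry CD4 or that enter tumours from blood, were counted in the same way. Of all genes 2.47% passed, so counts of 0 or 1 in lists this small do not set them apart from all genes. None of 15 monocyte and neutrophil genes passed (limma, unadjusted p under 0.05 for 2 higher and 1 lower), and 10 of them, the granule genes S100a8 and Mpo included, were above background on no array. Of 13 dendritic cell genes 1 rose and none fell (limma, unadjusted p under 0.05 for 2 higher and 4 lower). Cd209a, a lectin of dendritic cells and some macrophages and the gene of that list that differed most, named after its value was seen, was above background on all arrays and stood at -1.14 (SE 0.32, adjusted p = 0.0737, groups overlapping). The dendritic cell gene that rose was Irf8, a transcription factor that microglia also need, at 6.64 ± 0.14 (SD, n = 4) against 5.69 ± 0.20 (SD, n = 4) (adjusted p = 0.0212, lost without Bcl2l1-deleted replicate 1, 2, 3 or 4 or control replicate 4 and with the replicate number as a block). Zbtb46, a factor of conventional dendritic cells, stood at -0.56 (SE 0.20, adjusted p = 0.131) and Flt3, their growth factor receptor, at -0.11 (SE 0.37, adjusted p = 0.868). Timd4, a receptor on resident macrophages that in the gut accompanies CD4, was above background on no array and stood at -0.06 (SE 0.19, adjusted p = 0.862).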
